A study of Mus musculus with 27 samples.

Results

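The regions described here were the WDR43 peaks of DMSO-treated mouse embryonic stem cells that were also found after DRB and were not found after actinomycin D (ActD). Peaks were chosen by the 3 deposited lists alone: a DMSO peak belonged to the set when it shared at least 1 bp with a peak of the DRB list and none with a peak of the ActD list. This held for 2645 of the 31189 DMSO peaks, or 8.48%. A further 256 DMSO peaks overlapped both inhibitor lists, 60 overlapped the ActD list only, and 28228 overlapped neither. Since these lists made the choice, the scores and widths in these 3 lists are given as description, without a test.

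The study mapped WDR43 and RNA polymerase II (Pol II) on chromatin by ChIP-seq and measured poly(A) RNA in mouse embryonic stem cells grown with serum and leukemia inhibitory factor. For the inhibitor experiment the cells carried Fbio-tagged WDR43, and chromatin was precipitated with a FLAG antibody after DMSO, DRB or ActD, with 1 library per treatment. One more FLAG library came from cells labelled FB and one from a cFB knock-in (KI). Wild-type cells with a control hairpin (shCtl) or a hairpin against WDR43 (shWDR43) gave 2 libraries per group for hypophosphorylated Pol II (antibody 8WG16, here hypoP), for Pol II phosphorylated at serine 5 (Ser5P), for Pol II phosphorylated at serine 2 (Ser2P) and for RNA. The labels give no genotype for the FB, cFB knock-in and Ser2P libraries or for the shWDR43 libraries of hypoP. They also give no dose or time for the inhibitors and no promoter for the tagged construct. Nothing says whether the ChIP libraries numbered 1 and 2 came from separate cultures or different hairpins, and p-values over them measure the spread between these libraries, which could be technical. The RNA table names 2 biological replicates per group.

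WDR43 is a WD-repeat protein that takes part in ribosome assembly in the nucleolus, in the processome that makes the small ribosomal subunit. Pol II pauses shortly after it starts a gene, and the kinase CDK9 of P-TEFb releases it into elongation. DRB inhibits that kinase, whereas ActD intercalates into DNA and blocks transcription itself. Serine 5 of the Pol II tail is phosphorylated near the starts of genes, and serine 2 in Pol II that elongates.

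The peak lists use mouse build mm9 and no genome of that build was used here, so the sequence of the peaks themselves is not shown. Promoters of genes with a retained peak at the start are shown in its place. They come from RefSeq (GRCm38.p6), in the direction of the gene, and each line gives the 150 bases before the annotated start. The 7 genes were chosen after their values were seen. The first 4 belong to histone genes, the gene group with the highest share of retained peaks below. The others belong to Rps18, one of the most abundant RNAs among genes with a retained peak, to Smarca5, whose peak was found in all other lists, and to Ei24, whose RNA was higher in shWDR43. Capitals mark CCAAT (the NF-Y box, or ATTGG on the other strand), TATAAA (the TATA box), GGGCGG (the GC box of the SP family), CCGGAAG (ETS), GCATGCGC (NRF1), TCTCGCGA (the ZBTB33 palindrome) and ATGCAAAT (the octamer bound by OCT4).
Hist1h1c: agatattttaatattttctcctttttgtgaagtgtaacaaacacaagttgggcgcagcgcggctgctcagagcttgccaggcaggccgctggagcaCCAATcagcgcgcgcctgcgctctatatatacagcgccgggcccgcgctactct
Hist1h1d: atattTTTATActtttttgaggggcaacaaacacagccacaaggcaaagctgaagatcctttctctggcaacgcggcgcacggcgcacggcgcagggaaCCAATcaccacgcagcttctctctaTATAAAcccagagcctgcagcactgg
Hist1h3e: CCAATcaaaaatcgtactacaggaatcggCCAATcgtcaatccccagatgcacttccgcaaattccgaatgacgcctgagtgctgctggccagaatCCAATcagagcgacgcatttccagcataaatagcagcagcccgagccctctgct
Hist1h2ac: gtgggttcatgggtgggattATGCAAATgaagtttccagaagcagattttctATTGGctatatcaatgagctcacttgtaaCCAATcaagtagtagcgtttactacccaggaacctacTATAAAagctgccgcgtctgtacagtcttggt
Rps18: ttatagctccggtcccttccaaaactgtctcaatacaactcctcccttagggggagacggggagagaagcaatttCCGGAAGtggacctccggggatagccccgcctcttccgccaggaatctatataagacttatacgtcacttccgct
Smarca5: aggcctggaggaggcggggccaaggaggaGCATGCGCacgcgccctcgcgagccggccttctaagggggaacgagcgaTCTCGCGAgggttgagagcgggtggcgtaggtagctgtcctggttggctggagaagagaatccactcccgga
Ei24: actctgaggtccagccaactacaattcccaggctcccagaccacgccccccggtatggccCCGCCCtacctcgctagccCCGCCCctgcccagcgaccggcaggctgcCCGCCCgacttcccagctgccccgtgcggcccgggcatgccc
In the stretches shown, CCAAT stood upstream of Hist1h1c, Hist1h1d, Hist1h3e and Hist1h2ac, and TATAAA stood upstream of Hist1h1d and Hist1h2ac. The Ei24 stretch held 3 GC boxes. These matches describe letters and are no proof of a bound factor.

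The same strings were counted in the 300 bases around each start (250 before and 50 after) on both strands, with 1 promoter per symbol. All 796 genes with a retained peak at the start matched a promoter, and 6782 genes whose start held only a DMSO peak in neither inhibitor list served beside them. CCAAT was present in 32.7% of the 796 (exact 95% interval 29.4 to 36.0) and in 38.0% of the 6782, against 37.9% of all 27025 RefSeq promoters. The GC box was present in 66.6% and 68.6%, against 35.9% of all promoters. TATAAA was present in 7.91% and 6.05%, against 14.2% of all promoters. CCGGAAG was present in 17.2% and 20.2%, against 9.12%, and GCATGCGC in 6.53% and 6.07%, against 2.80%. TCTCGCGA was present in 2.26% and 2.86%, against 1.08%, and ATGCAAAT in 2.14% and 1.28%, against 1.75%. The E box CACGTG was present in 12.7% and 10.9%, against 7.24% of all promoters. AAGATGGC (YY1) was present in 3.89% and 5.25%, against 2.88%, and TGACGTCA (CRE) in 3.64% and 3.94%, against 1.88%. The AP-1 element (TGA, any base, TCA) was present in 4.15% and 3.63%, against 7.93%, and GTTCGANNC (the B box of Pol III genes) in 1.63% and 1.30%, against 0.877%. None of the 12 strings contains another. Both groups of bound promoters were rich in GC, with a median of 64.3% and 62.3% against 52.7% of all promoters. The histone genes stood apart from the other promoters. With them left out of the genes with a retained peak, TATAAA was present in 6.25%, ATGCAAAT in 1.30% and CCAAT in 30.6% of the other 768. Among the 28 histone promoters with a retained peak, CCAAT was present in 25 and TATAAA in 15, and among 34 histone promoters with only other DMSO peaks the counts were 27 and 20.

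The deposited score of a retained peak in DMSO had a median of 124 (quartiles 79.7 and 191), and in DRB a median of 65.3 (quartiles 55.5 and 85.1, highest 504.6). DMSO peaks in neither inhibitor list had a median score of 73.9, and those in both lists a median of 447. Retained peaks were also wider, with a median of 323 bp against 230 bp for peaks in neither list. The score is the authors' own value for a peak, its scale is not named in the labels or headers, and it was at least 50 in every list. The chance of being retained followed the DMSO score. In the lowest decile of the DMSO scores 97 of 3119 peaks were retained (3.11%), and in the highest decile 758 of 3119 (24.3%). In 477 retained peaks (18.03%) the number in the DRB list exceeded that in the DMSO list, although scores of separate lists are not on a shared scale. The retained peaks covered 1.05 Mb and touched 2647 of the 4426 DRB peaks. Of them 237 shared a DRB peak with another retained peak, so not all are separate sites.

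**Figure D1:**
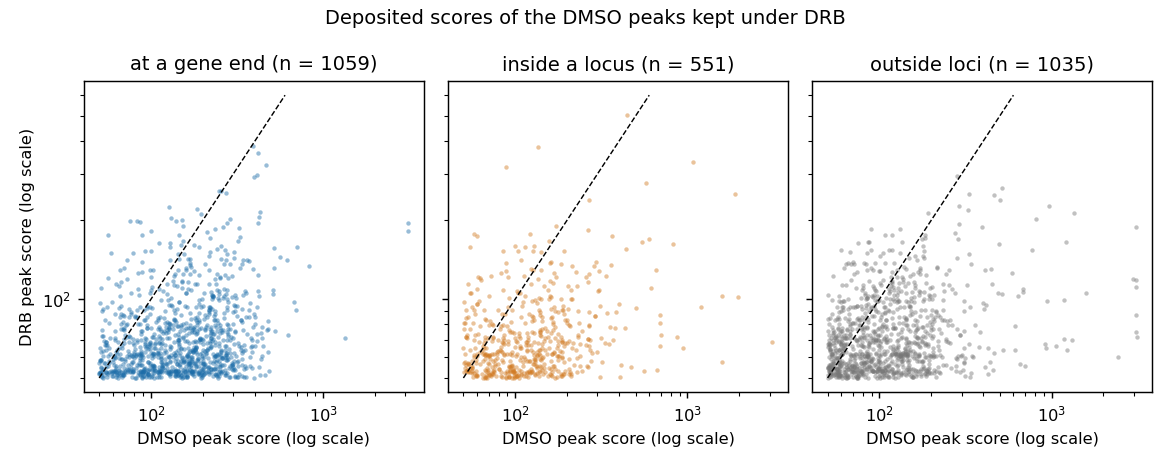
Deposited score of each retained peak in the DRB list (y axis, log scale) against its score in the DMSO list (x axis, log scale), by position relative to the loci of the RNA table; the dashed line marks equal numbers. Each point is 1 of the 2645 peaks, most points lie below the line, and 477 lie above it.

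The edge of the selection was narrow. At chr1:119382579-119382900 a peak with a DMSO score of 106.53 shared 1 bp with a DRB peak, as did a peak with a score of 66.7 at chr11:101646243-101646661 at an end of Etv4, an ETS transcription factor gene. Outside the edge, a DMSO peak inside Map3k5, a stress kinase gene (chr10:19705153-19705354, score 71.96), lay next to a DRB peak without sharing a base, and so did chr11:24781924-24782198 (score 94.84). In all, 36 retained peaks shared 10 bp or less with a DRB peak, and 50 DMSO peaks lay within 10 bp of one without touching it.

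The highest DRB scores fell into regions of several kinds. Those ranked 1 and 3 lay in a tandem array on chromosome 6 that the table lists as XLOC_019212 and that holds Rn4.5s, a rodent small RNA transcribed by Pol III. The top peak, chr6:47712980-47715412, had a DMSO score of 443.24 and a DRB score of 504.6, and chr6:47626349-47627997 had 135.68 and 380.9. Between them ranked chr2:136539884-136540191 at an end of Snap25, a synaptic vesicle fusion gene, with 390.79 in DMSO and 384.97 in DRB. Next came chr2:28771516-28771968 at an end of Barhl1, a neural homeobox gene, with 417.38 and 359.5, and chr13:44964934-44965103 inside Jarid2, a subunit of Polycomb complex PRC2, had 1081.2 and 332.3 and overlapped a peak in all 14 other lists. Of the 14 other lists, the Snap25 peak was in 2, and the Barhl1 peak and both array peaks were in 1.

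The array was examined as a whole after its values were seen. Over its 130.7 kb and its flanks the DMSO list held 14 peaks, the DRB list 28 and the ActD list 16. The DMSO scores ran from 55.99 to 696.2 with a median of 320.4, the DRB scores from 52.77 to 504.6 with a median of 254.3, and the ActD scores from 52.28 to 165.6 with a median of 72.1. Of the 14 DMSO peaks, 6 were retained under DRB only and the other 8 also touched an ActD peak. The peak with the DMSO score of 696.2, chr6:47727915-47728722, is counted among the 6 but lay in the flank. It was in 13 of the 14 other lists. The FB list held 31 peaks there with a median score of 912, and the cFB knock-in list held 4. The Pol II lists held 1 to 5 peaks each in the same interval. RNA of Rn4.5s was 0.2 and 0.5 FPKM in shCtl and 0.7 and 0.2 in shWDR43, and an RNA without a poly(A) tail may be captured only in part. Both inhibitor lists thus held more peaks in this array and its flanks than the DMSO list. This was the reverse of the whole lists, with 31189 peaks in DMSO, 4426 in DRB and 407 in ActD. Reads from tandem copies may map to several places, and the part of mapping in these counts was not tested.

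Peaks with the highest DMSO scores were named as a further set. The highest DMSO score among retained peaks, 3130.6, belonged to chrUn_random:5249155-5249769, which had 71.79 in DRB and was in all 14 other lists. Others named by the same rule scored 3100 in DMSO, namely chr2:98502379-98503232 and chr2:98506308-98507501, which lie at ends of the unnamed loci XLOC_012573 and XLOC_012574, chr6:103599042-103599295 inside Chl1, a neural cell adhesion gene, chr15:74916363-74917486 and chrX:166527082-166527517. In the same order the DRB scores of these 5 were 195.24, 181.69, 68.58, 188.87 and 118.29. All but the one on chromosome 15, which was in 13, were in all 14 other lists. A peak inside Gnb1l, a WD-repeat gene, chr16:18533281-18533428, scored 1879.78 in DMSO and 250.75 in DRB and was in 8 other lists, among them 7 of the 8 Ser5P and Ser2P lists and no hypoP list. Altogether 41 retained peaks (1.55%) were in all 14 other lists, against 0.149% of the DMSO peaks in neither inhibitor list. Of the 256 DMSO peaks in both inhibitor lists, 33 (12.9%) were in all 14. An input library was not analysed here, and the part of mapping in these peaks was not tested. Among these 41, those with high FB scores included peaks at histone genes. The peak at Hist2h3c2 and Hist2h2aa2, chr3:96042229-96044513, had 520.86 in DMSO, 131.65 in DRB and 2910.8 in FB. The peak at Hist1h1d, chr13:23646780-23648181, had 414.19, 93.15 and 1206.57. At the start of Smarca5, the ATPase of ISWI chromatin remodelers, chr8:83262653-83264096 had 831.88, 134.27 and 1175.54, and at the start of Rpl10a, a ribosomal protein gene, chr17:28465305-28465821 had 160.3, 57.89 and 736.9. At the other extreme, 84 retained peaks (3.18%) were in none of the 14 other lists, against 19.99% of the peaks in neither inhibitor list. Of the peaks in both inhibitor lists it was 1.95%. The median number of other lists was 6 for retained peaks and 4 for peaks in neither.

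By position, 1059 retained peaks (40.0%, exact 95% interval 38.2 to 41.9) lay within 1 kb of an end of a locus of the RNA table, 551 (20.8%) lay inside a locus and 1035 (39.1%) lay outside. These shares were close to those of all DMSO peaks, of which 39.0% lay at ends and 35.9% outside. At a like DMSO score they were not. Peaks in neither inhibitor list, weighted to the score deciles of the retained peaks, lay at ends in 49.4% and outside in 30.6%. Where RefSeq gave the direction of a gene, 749 retained peaks (28.3%) lay within 1 kb of a start, against 35.4% of peaks in neither list at the same score mix, and 38 lay only at the opposite end. Around starts, 736 retained peaks had their centre within 1 kb, with a median position 35 bp downstream, and 56.8% of these centres were downstream of the start. The median distance to the nearest start was 33.3 kb for retained peaks and 20.4 kb for peaks in neither list.

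Chromosomes retained between 6.95% (chromosome 9) and 9.74% (chromosome 14) of their DMSO peaks among the autosomes, and 3 sequences with at least 100 DMSO peaks, described after their values were seen, lay outside that range. On chromosome X 124 of 772 DMSO peaks were retained, 16.1% (exact 95% interval 13.5 to 18.8). Of these, 83 lay outside loci and 5 at gene ends, and 81.5% overlapped a hypoP peak in each shCtl library. On the unplaced sequence chrY_random 52 of 120 were retained, 43.3% (34.3 to 52.7). Those 52 overlapped the FB list in 61.5%, the hypoP shCtl lists in 5.77% and 7.69%, and the cFB knock-in list in none. The unplaced sequence chrUn_random lay below the range, with 7 of 270 retained, 2.59% (1.05 to 5.27). Without all unplaced sequences 2575 retained peaks remained.

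The WDR43 lists that the selection did not use overlapped most retained peaks. In the FB list 2480 of the 2645 had a peak, 93.8% (exact 95% interval 92.8 to 94.7), against 67.9% of peaks in neither inhibitor list and 78.9% of these at the score mix of the retained peaks. In the cFB knock-in list 1885 had a peak, 71.3% (69.5 to 73.0), against 47.2% and 59.95%. Of the 256 DMSO peaks in both inhibitor lists, 97.3% had an FB peak and 41.0% a cFB knock-in peak. The gap between retained peaks and peaks in neither list was widest among peaks of low DMSO score. In the lowest decile 83.5% of retained peaks and 46.6% of peaks in neither list were in the FB list, and in the highest decile the shares were 94.99% and 88.8%. For the cFB knock-in list the shares were 57.7% and 32.3% in the lowest decile and 80.7% and 79.7% in the highest. Peaks at gene ends, inside loci and outside loci shared the high FB overlap, with 98.0%, 92.0% and 90.3%. They differed in the knock-in, with 90.7% at ends, 57.9% inside and 58.5% outside. Peaks in neither list, not weighted by score, also differed by position. Their shares in the same order were 85.3%, 53.9% and 58.9% for FB, and 80.7%, 24.1% and 27.1% for the knock-in. Intervals and shares over peaks cover counting error only, each list is 1 library, and the FB, cFB and DMSO libraries share the FLAG antibody. The depth behind the lists is unknown.

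**Figure D2:**
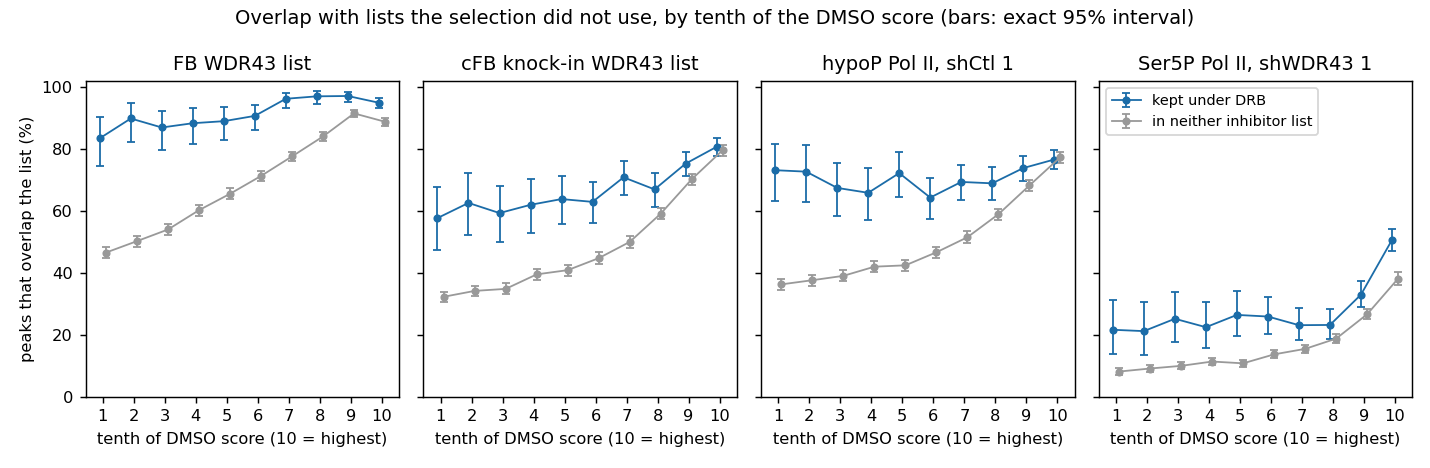
Share of peaks (y axis, percent) that overlapped 4 other lists, by decile of the DMSO score (x axis), for peaks retained under DRB (blue) and peaks in neither inhibitor list (grey); bars are exact 95% intervals. The blue points lie above the grey ones in the low deciles and meet them for the knock-in and hypoP lists in the highest decile.

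Pol II was present at most retained peaks in control cells. In the 2 shCtl libraries 72.0% and 71.7% of retained peaks overlapped a hypoP peak, against 48.9% and 49.1% of peaks in neither inhibitor list and 59.9% and 60.1% of these at the same score mix. In the lowest score decile the shares were 73.2% and 36.3% in shCtl library 1, and in the highest decile 76.6% and 77.4%. Ser5P covered 12.6% and 15.8% of retained peaks in shCtl, against 4.66% and 6.36% of peaks in neither list and 8.05% and 10.8% of these at the same score mix. Ser2P covered 8.81% and 9.26%, against 5.13% and 5.58%, or 6.74% and 7.21% at the same score mix. Of the 256 DMSO peaks in both inhibitor lists, hypoP covered 26.6% in each shCtl library, Ser5P 25.8% and 23.4%, and Ser2P 18.4% and 19.1%. The hypoP share of retained peaks was 83.0% and 82.7% at gene ends, 59.0% and 57.9% inside loci and 67.7% in both libraries outside loci. For peaks in neither list it was 77.2% and 77.3%, 25.4% and 25.6%, and 34.7% and 35.0%, in the same order. Within 1 kb of a start it was 87.3% and 86.2% for retained peaks, and 87.4% and 87.1% for peaks in neither list.

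Between the hairpins the Ser5P share was the one that differed most. It was 12.6% and 15.8% in shCtl and 33.2% and 36.6% in shWDR43, a difference of 20.7 percentage points (means 14.2% ± 2.25 and 34.9% ± 2.38, SD, n = 2 libraries each; exact permutation test, two-sided, p = 0.333). Both shWDR43 libraries lay above both shCtl libraries, and 0.333 is the smallest p that this test allows for 2 against 2 libraries. Over all DMSO peaks the Ser5P share went from 5.55% and 7.34% to 17.1% and 19.7%, so the ratio of means was 2.46 for retained peaks and 2.85 for all DMSO peaks. The Ser5P lists themselves held 1879 and 2520 peaks in shCtl and 6535 and 7589 in shWDR43, and the part of list size in the difference was not tested. In all, 275 retained peaks (10.4%) had a Ser5P peak in both shWDR43 libraries and in no shCtl library, and 10 (0.378%) showed the reverse. Over all DMSO peaks the same counts were 1834 (5.88%) and 67 (0.215%). For retained peaks outside loci the share went from 7.44% and 9.47% to 24.4% and 27.1%, and at gene ends from 18.8% and 23.3% to 47.6% and 51.6%.

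The hypoP share was 75.3% and 73.7% in shWDR43, 2.65 percentage points above shCtl (means 71.8% ± 0.241 and 74.5% ± 1.15, SD, n = 2 each; exact permutation test, two-sided, p = 0.333). Over all DMSO peaks the difference was 5.82 points. The labels name the antibody supplier for the shCtl libraries of hypoP and not for those of shWDR43, so any difference in preparation and the hairpin cannot be told apart. For Ser2P the shWDR43 libraries had 8.92% and 9.26%, and the 4 libraries overlapped (difference 0.0567 points; exact permutation test, two-sided, p = 1). The Ser2P difference changed sign with the library left out and with the definition of overlap, so it has no direction here.

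**Figure D3:**
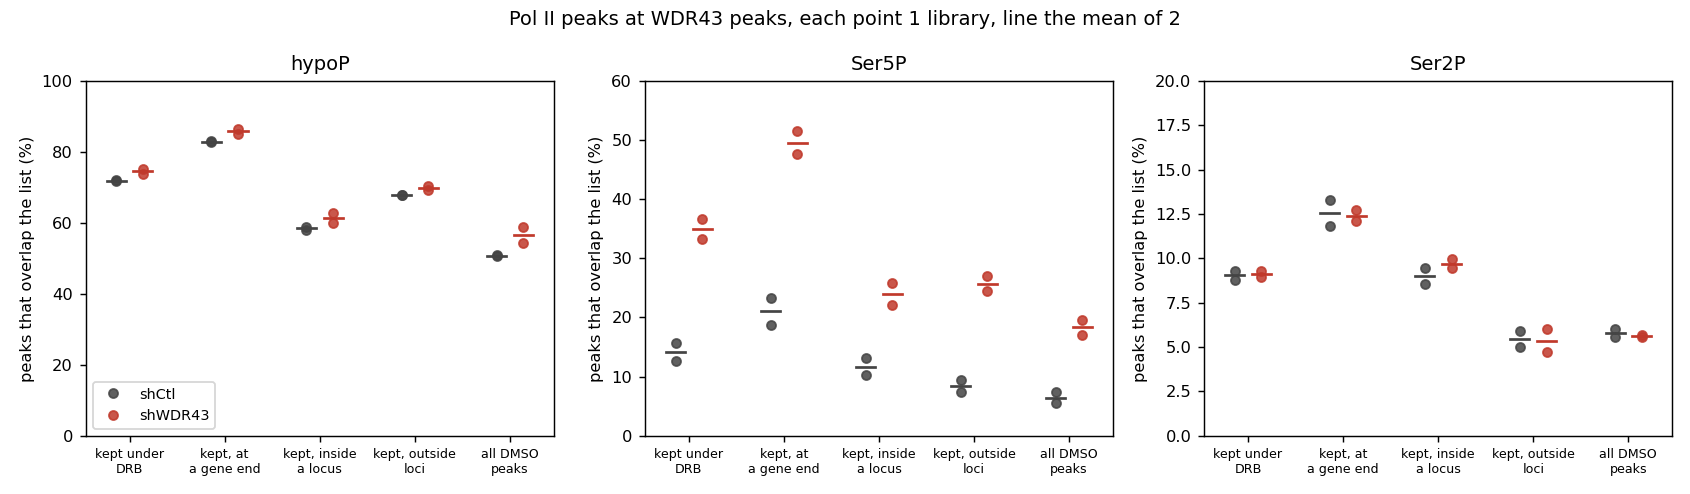
Share of WDR43 peaks (y axis, percent) that overlapped a hypoP, Ser5P or Ser2P peak in shCtl (grey) and shWDR43 (red), for the 2645 retained peaks, for these by position, and for all DMSO peaks. Each point is 1 library and the line is the mean of 2; the y axes differ between panels, and the red Ser5P points lie above the grey ones in each set shown.

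Genes with a retained peak within 1 kb of an end numbered 1301, of which 1001 were protein-coding. They were 10.47% of the 12420 genes with any DMSO peak at an end. The peak lay at the start in 796 of them, at the opposite end only in 51, and 454 had no known direction. The gene lists below were set against that 10.47%. Histone genes had the highest share of the 16 lists. Of 68 histone genes with a DMSO peak, 31 had a retained one (45.6%, exact 95% interval 33.5 to 58.1). Since neighbouring histone genes share peaks, the peaks were counted too: 19 of 66 DMSO peaks at histone genes were retained (28.8%, 18.3 to 41.2), against 15.3% for DMSO peaks of the same score deciles. The Hist1 cluster on chromosome 13 held 15 of them, over 25 of its 52 genes, and Hist2 on chromosome 3 held 3, over 5 of 9 genes. None of the 60 DMSO peaks at replication-dependent histone genes touched an ActD peak. Such overlap was rare in all 31189 DMSO peaks too, at 256 in both inhibitor lists and 60 in the ActD list only. For retained peaks the selection rule itself excluded it. The 18 retained peaks at these histone genes were in the FB list in 18 of 18 cases and in hypoP in 17 of 18 in each shCtl library. Ser5P covered 14 and 16 of the 18 in shCtl and 18 of 18 in both shWDR43 libraries, whereas Ser2P covered 13 of 18 in both shCtl libraries and 9 and 8 in shWDR43. Of all DMSO peaks 70.3% were in the FB list, and 50.7% and 50.8% were in hypoP in shCtl. Ser5P covered 5.55% and 7.34% of them in shCtl and 17.1% and 19.7% in shWDR43. For Ser2P the shares were 5.58% and 6.04%, then 5.54% and 5.69%. Whether the other DMSO peaks at histone genes resembled these 18 was not tested, nor was the difference between hairpins at the 18.

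The other lists had lower shares. Of splicing factor genes with a DMSO peak, 15 of 54 had a retained one (27.8%, 16.5 to 41.6), among them Sf3b1, the largest subunit of the U2-associated SF3b complex, and Srsf3, a splicing regulator. Among snoRNA host genes it was 5 of 18 (27.8%), among translation factors 10 of 48 (20.8%), among ribosomal proteins 14 of 71 (19.7%, 11.2 to 30.9) and among heat shock chaperones 7 of 52 (13.5%). Of immediate early genes 3 of 15 had one, namely Jund, Klf10 and Ier2. Of Pol I and nucleolar genes 3 of 31 had one (Ubtf, the Pol I transcription factor, Nol9 and Nip7), of p53 targets 2 of 24 and of pausing and elongation factors 2 of 27. Of primitive endoderm markers it was 2 of 5 (40.0%, 5.27 to 85.3), at 1 shared peak. In the small-subunit processome itself, the complex WDR43 belongs to, 1 of 32 genes had a retained peak (Nop56; 3.12%, 0.0791 to 16.2). None was found among 16 naive pluripotency genes with a DMSO peak (upper limit 20.6%), 11 Pol II subunit genes (28.5%), 7 small noncoding RNA loci (41.0%) and 5 fibroblast markers (52.2%). The intervals of 13 of the 16 lists include 10.47%. Counted by peak, 20 of 81 DMSO peaks at splicing factor genes were retained (24.7%, 15.8 to 35.5), against 12.4% for DMSO peaks of the same score deciles. At ribosomal protein genes it was 15 of 88 (17.05%, 9.87 to 26.6), and that interval includes the 12.7% of peaks of the same score deciles.

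**Figure D4:**
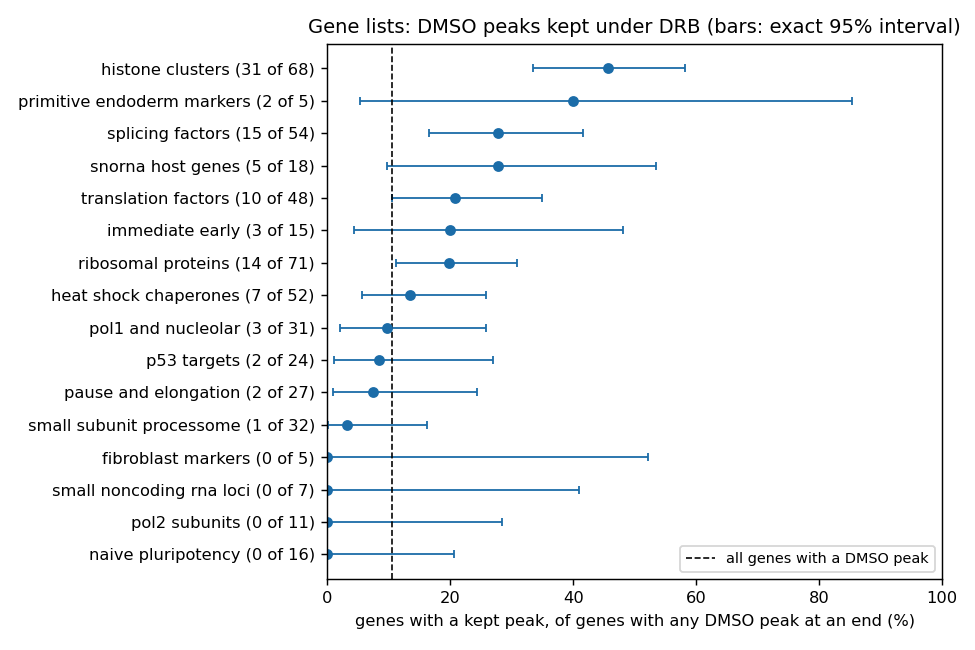
Share of genes (x axis, percent) whose end held a retained peak, among genes of 16 lists with any DMSO peak at an end (numbers in brackets); bars are exact 95% intervals and the dashed line is the share over all such genes, 10.47%. Histone and splicing factor genes lie to the right of the line with their whole interval, as do ribosomal protein genes by a small margin that was lost when peaks of the same score were compared.

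RNA was compared between shWDR43 and shCtl on log2(FPKM + 1). In bulk RNA fewer cells of a type and less RNA per cell cannot be told apart. Wdr43 itself, which had no retained peak at an end, was at 82.3 and 78.2 FPKM for shCtl, against 21.2 and 20.7 for shWDR43. The embryonic stem cell markers were present in each library, with a sum over 8 genes of 4761 and 4805 FPKM in shCtl and 2603 and 2454 in shWDR43. Of 8 fibroblast markers the sum was 30.0 and 41.5 FPKM in shCtl and 36.8 and 63.7 in shWDR43, with Dcn and Lum at 0 in each library. Thy1 fell from 3.6 and 5.2 to 1.0 and 1.2, whereas Col1a2 and Pdgfrb were higher in both shWDR43 libraries. The sum of 6 primitive endoderm markers went from 3.8 and 4.0 with the control hairpin to 5.9 and 5.8 with shWDR43. Gata4, Gata6, Sox17 and Dab2 were higher in both shWDR43 libraries, Sox7 fell from 0.8 and 1.2 to 0.3 and 0.4, and Foxa2 was at most 0.1. The deposited values summed to 1015232 and 1040749 in shCtl and 687051 and 681178 in shWDR43, and spike-in RNA is named in the title that the authors gave this table.

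Of the 1301 genes, 927 passed the expression filter, and 479 of these (51.7%) were lower and 45 (4.85%) higher in shWDR43 at an adjusted p under 0.05 (limma, Benjamini-Hochberg). Over all 12452 genes tested, 42.7% were lower and 6.1% higher. The median log2 fold change was -0.46 for genes with a retained peak, -0.41 for genes with only a DMSO peak in neither list, and -0.39 for all tested genes. Expression moved with this difference, since the median shCtl value was 13.4 FPKM among tested genes with a retained peak and 9.05 among all tested genes. Within 5 equal bins of mean expression the shares called lower, for genes with a retained peak against all tested genes, were 13.3% against 13.7% in the lowest bin, 25.3% against 26.3%, 41.3% against 39.3%, 58.7% against 56.1%, and 85.3% against 78.4% in the highest. The gap was widest in the bin of highest expression. With each library centred on its median the counts were 255 lower (27.5%) and 101 higher (10.9%) for genes with a retained peak. The median over all tested genes moved from -0.39 to -0.06. Among the calls at genes with a retained peak, the part lower went from 91.4% to 71.6%. Over all tested genes the calls went from 5322 lower and 760 higher to 2606 and 1615. With any 1 of the 4 libraries left out, 1 group holds 1 library, so no conclusion is drawn from calls for any set of genes. The median log2 fold change then ran from -0.52 to -0.42 for genes with a retained peak. For all tested genes it ran from -0.45 to -0.34.

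The lowest fold changes belonged to enzymes and regulators of several kinds, beside the histone gene described below and the unnamed locus RP24-286J21.4, which was at 2.4 and 1.6 FPKM in shCtl and listed at 0 in shWDR43. Glul, glutamine synthetase, was at 159.3 and 160.7 FPKM with the control hairpin and 49.6 and 40.9 with shWDR43 (log2 fold change -1.81, SE 0.136; limma adjusted p = 0.000976). Exoc3l, an exocyst-related gene, was at 16.2 and 16 against 4.3 and 4, and Dnmt3a, a de novo DNA methyltransferase, at 36.6 and 33.5 against 12.7 and 8.3. Both shWDR43 libraries were below both shCtl libraries in each. Tk1, the cytosolic thymidine kinase, fell from 32.1 and 44.8 to 11.6 and 11.3 FPKM, Ppa1, inorganic pyrophosphatase, from 171.2 and 176.2 to 60.1 and 51.5, and Ppp2r5a, a regulatory subunit of phosphatase PP2A, from 50.1 and 53.2 to 17.8 and 15.6. These genes had retained peaks at the start with DMSO scores from 66.58 (Tk1) to 485.51 (Ppp2r5a), Exoc3l aside, for which direction was unknown.

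The highest fold change belonged to Perp, a p53 target of cell junctions, at 15.1 and 12.2 FPKM in shCtl and 74.7 and 55.3 in shWDR43 (log2 fold change 2.16, SE 0.184; limma adjusted p = 0.00102). Ei24, another p53-induced gene, rose from 43.9 in both shCtl libraries to 87.9 and 75.5. Col4a1 and Col4a2, the basement membrane collagens that share 1 retained peak between their starts, rose from 13 and 14 to 25.4 and 29.5 and from 4.6 and 5.1 to 11 and 13.4. Both are in the list of primitive endoderm markers, of which 4 of 8 tested were higher, and the part of such cells in the rise was not tested. Cnga3, a cyclic nucleotide-gated channel, and Tas1r1, a taste receptor gene, also rose but from low levels, at 2.1 and 1.5 and at 0.6 and 0.5 FPKM in shCtl. Tas1r1 shares its retained peak with Nol9, which fell from 44.1 and 43.4 to 33.6 and 30.5. The unnamed or noncoding loci AK142678, XLOC_009395 and XLOC_010701 rose from at most 1.6 FPKM in any shCtl library. The fall of Nol9 did not pass with libraries centred on their median.

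The most abundant RNAs with a retained peak were all lower in shWDR43. Ptma, prothymosin alpha, fell from 6265.4 and 6512.4 to 2526.2 and 1955.8 FPKM (log2 fold change -1.52; limma adjusted p = 0.00102). Eef1a1, the translation elongation factor, was at 5789.6 and 5544.2 against 4288.3 and 3770.9 (log2 fold change -0.49), a fall that did not pass with libraries centred on their median. Gapdh, a glycolytic enzyme, and the ribosomal protein genes Rps20, Rpl38, Rps18, Rps23 and Rpl13 had log2 fold changes from -1.02 to -0.86. All 14 ribosomal protein genes with a retained peak were lower, as were all 78 tested in the list, and the median log2 fold changes were -0.85 and -0.83. With libraries centred on their median 12 of the 14 and 62 of the 78 passed. Likewise all 15 splicing factor genes with a retained peak were lower (median -0.79; whole list 60 of 66 lower, median -0.84), of which 12 and 46 passed with centred libraries. Of 10 translation factors 8 were lower (whole list 51 of 60), and 6 of the 10 passed with centred libraries. Of 7 chaperones 6 were lower with either scaling, whereas of the whole list 38 of 71 were lower and 4 higher. They were led by Hspd1 and Hspe1, the mitochondrial chaperonins that share 1 retained peak between their starts (log2 fold change -1.40 and -1.09). Nop56, Nip7, Ubtf and Ssrp1, a subunit of the histone chaperone FACT, had log2 fold changes of -0.92, -1.13, -0.80 and -1.14.

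The histone genes did not move as 1 group. Of 29 tested histone genes with a retained peak 7 were lower, 10 higher and 12 did not pass (median log2 fold change 0.22, against 0.22 over the whole list, of which 15 of 59 were lower and 14 higher). With libraries centred on their median 5 were lower and 13 higher. The fallers were the Hist1 genes of histone H2A (Hist1h2ad, Hist1h2ae, Hist1h2ag, Hist1h2ah, Hist1h2ai and Hist1h2ao) and H3f3b, which encodes the replacement variant H3.3. Hist1h2ao and Hist1h2bk are given as examples chosen after their values were seen. Hist1h2ad went from 157.4 and 197.6 to 63.2 and 44.8 FPKM, and Hist1h2ao from 294.1 and 348.4 to 116.4 and 100.9. The risers were linker histone Hist1h1c, 4 genes of histone H4 (Hist1h4a, Hist1h4d, Hist1h4i and Hist1h4m), 3 of histone H2B (Hist1h2bc, Hist1h2bk and Hist2h2bb) and 2 of histone H3 (Hist1h3d and Hist2h3c1). Hist1h1c went from 6.8 and 8.8 to 16 and 18, and Hist1h2bk from 6.2 and 8.2 to 14.1 and 15.8. Genes of opposite direction shared peaks, such as Hist1h2ah and Hist1h2bk, and Hist1h2ag and Hist1h4i. These genes are near-identical copies and most of their RNA lacks a poly(A) tail, so the values of single genes are uncertain.

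**Figure D5:**
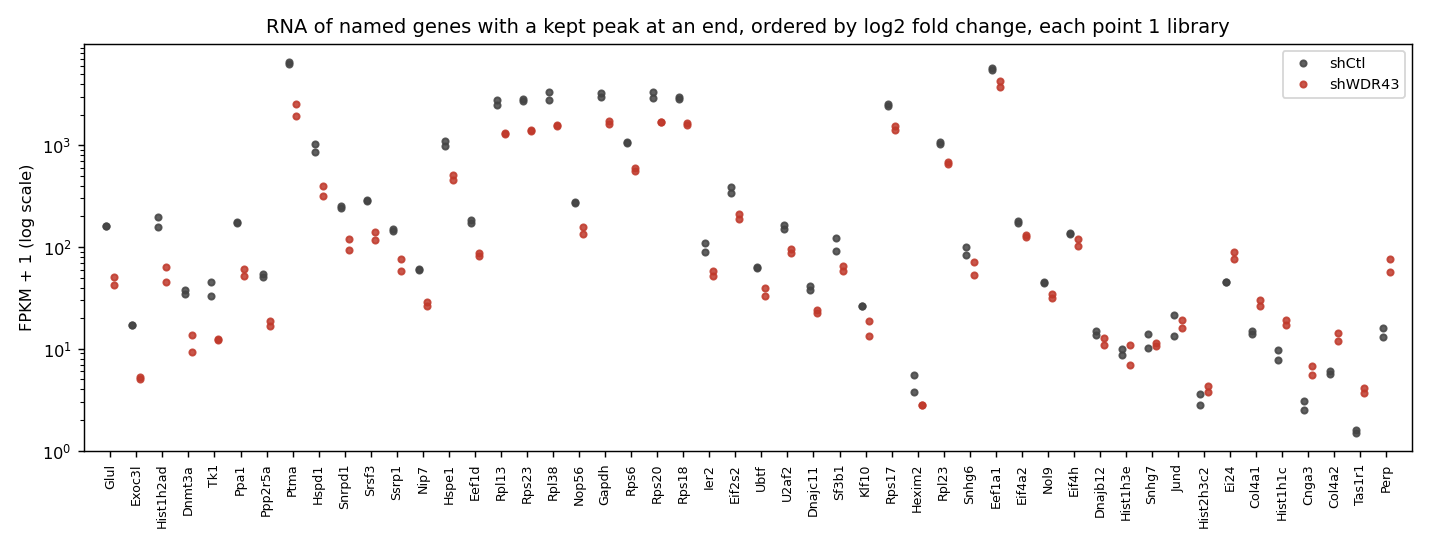
RNA of named genes with a retained peak at an end (x axis, ordered from the lowest to the highest log2 fold change), as FPKM + 1 on a log scale (y axis), in shCtl (grey) and shWDR43 (red); each point is 1 library, 2 per group, and loci without a gene name are not plotted. In the values as deposited the red points lie below the grey ones from Glul to Eif4h, and above them at the right end from Ei24 to Perp.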

How the data were processed

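WDR43 and Pol II were mapped by ChIP-seq and RNA by poly(A)-selected RNA-seq. Bowtie2, Novoalign, TopHat, Cufflinks and build mm9 are listed, without roles, in the submitters' processing notes. Peak names begin with MACS, and for its version, threshold and control the labels and headers hold no entry. The authors deposited 1 peak list per library, and the score used here is column 5 of each list. The RNA values were deposited by the authors as 1 number per gene and library, with averages, taken here as FPKM because Cufflinks is listed. Depth is unknown for both.

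Peaks were compared by overlap of at least 1 bp, and ends by a window of 1 kb. Groups with different scores were compared within 10 score deciles. RNA was tested with limma 3.58.1 (R 4.3.3) on log2(FPKM + 1), with a trend, over 12452 genes with a mean of at least 1 FPKM, and Benjamini-Hochberg adjustment. On simulated data it recovered 90% of genes changed 2-fold and all changed 8-fold. That simulation had normal noise, an SD smoothed over expression and few changed genes. In the data 42.7% of tested genes were lower, so the recovery does not describe the power here. Other computations used Python 3.11.15, pandas 2.3.3 and SciPy 1.17.1. Strand came from RefSeq symbols for 18174 of 38582 genes. Sensitivity was assessed with other overlaps, scores, windows, pseudocounts, scalings and libraries.

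Named regions were those with the highest DRB score, the highest DMSO score per position, the highest FB score among those in all lists, and those at the edge of the rule. Named genes were list members with the highest DMSO score, the lowest and highest fold changes, and the highest shCtl level. The regions, gene lists and motifs were chosen with earlier results of these data known.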

Additional observations from a re-analysis of the deposited data

How the results depend on the processing

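Requiring a score of at least 100 in both lists left 329 regions, of which 42.6% lay at gene ends, 97.0% had an FB peak and 73.3% a cFB knock-in peak. With the centre base of the DMSO peak inside a DRB peak and no ActD peak, an option added after seeing the data, these shares were 33.5%, 92.2% and 63.1%. With the centre base inside a peak of the other list the FB share was 92.0%, and with an overlap of at least 50% of either peak the cFB share was 69.5%. An end window of 500 bp gave 37.0% at ends, and one of 5 kb gave 48.1%. The Ser2P difference (0.0567 points) turned to -0.0426 with 50% overlap, -0.304 with the higher score and -0.222 with the centre rule, and leaving out 1 library gave -0.170 to 0.284 (-0.170 without shCtl 1 and -0.113 without shWDR43 2). The hypoP and Ser5P differences kept their sign in each such run, at 1.83 to 3.46 and 19.1 to 22.4 points.

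RNA counts lower and higher (479 and 45) were 56 and 8 with the higher score, 251 and 24 with the centre rule, 255 and 101 with centred libraries (median log2 fold change -0.13), and 247 and 22 with no filter on low values (median -0.35). Leaving out 1 library gave 0 lower and 0 higher each time, at a median from -0.52 to -0.42. The runs without 1 library leave 1 group with 1 library, so no conclusion is drawn from their counts for any set of genes. Libraries with the same number did not deviate together (correlation 0.0504), so the library numbers are not shown to pair samples. A fit with the replicate block called 524 and 50 of 927 (56.5% and 5.39%), against 47.6% and 6.75% of all tested genes. Of 55 named genes tested, 6 no longer passed with centred libraries, among them Nol9, Eef1a1 and Klf10, and no gene that passed changed direction under any alternative run. Among those that did not pass, Jund, Hist1h3e, Snhg7, Eif4h and Dnajb12 changed sign under at least 1 alternative. The depth behind the peaks and the absence of replicates for WDR43 limit the comparisons of lists, and the exact permutation test of 2 against 2 ChIP libraries cannot give a p below 0.333.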
